A study of Homo sapiens with 19 samples.

Results

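The 40 genes described here encode the machinery that copies DNA and the enzymes and cyclins of S phase. They were taken as a fixed list of gene symbols and sorted by role into 9 groups of 3 to 7 genes, and all 40 were found among the 25365, 25267 and 25266 genes of the tables of 3 human lymphoma lines, OCI-LY10, TMD8 and SUDHL2. All 3 are established cell lines of diffuse large B-cell lymphoma, of the subtype that resembles activated B cells. In each line the 2 tested groups express a short hairpin RNA against the transcription factor EGR1 (shEGR1#8 or shEGR1#9) and the third a control hairpin named sc4. Expression of all 3 hairpins was switched on with doxycycline at 20 ng/ml for 2 days, so the control cells received the drug as well. OCI-LY10 has 3 RNA libraries per group and TMD8 and SUDHL2 have 1, which makes 15 RNA libraries of 19 samples, and the 4 chromatin samples were not analysed here. Whether the 3 OCI-LY10 libraries in a group are from separate cultures is not stated, so a p-value here reflects library-to-library spread alone and that spread may be technical.

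DNA replication begins at origins marked by the origin recognition complex (ORC), where CDC6 and CDT1 load the ring-shaped MCM helicase before S phase, a step called licensing. Geminin, the product of GMNN, binds CDT1 and prevents a second licensing in the same cycle. The kinase CDC7 and the cyclin-dependent kinases then convert the loaded rings into active helicases by adding CDC45 and the GINS complex, and polymerases held on DNA by the sliding clamp PCNA copy both strands. Many of these genes are known targets of E2F transcription factors, which are active at the border of G1 and S phase.

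The promoters of 36 of the 40 genes were found by symbol in a RefSeq table of the build GRCh38.p14, each spanning 250 bases before to 50 bases after the start of the gene. The 4 promoters shown are those of genes that fell in OCI-LY10, and they differ in the E2F letters they hold. The build of the expression data is hg19, so these positions belong to GRCh38.p14 only. GMNN lies at chr6:24774687-24774986 on the plus strand, ORC1 at chr1:52404374-52404673 on the minus strand, CHAF1B at chr21:36385142-36385441 on the plus strand and CDC45 at chr22:19479216-19479515 on the plus strand. Capitals mark E2F letters on either strand.
GMNN: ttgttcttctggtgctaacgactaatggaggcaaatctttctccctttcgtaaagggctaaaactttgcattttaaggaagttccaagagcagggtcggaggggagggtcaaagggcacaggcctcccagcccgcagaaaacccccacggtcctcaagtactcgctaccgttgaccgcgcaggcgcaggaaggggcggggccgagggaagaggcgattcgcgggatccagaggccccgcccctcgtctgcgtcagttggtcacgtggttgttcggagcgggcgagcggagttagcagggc
ORC1: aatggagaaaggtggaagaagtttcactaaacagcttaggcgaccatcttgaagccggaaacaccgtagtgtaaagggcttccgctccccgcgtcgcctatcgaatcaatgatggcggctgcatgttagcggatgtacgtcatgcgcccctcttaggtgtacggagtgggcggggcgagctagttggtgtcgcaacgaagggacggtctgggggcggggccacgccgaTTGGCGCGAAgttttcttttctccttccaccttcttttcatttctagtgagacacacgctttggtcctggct
CHAF1B: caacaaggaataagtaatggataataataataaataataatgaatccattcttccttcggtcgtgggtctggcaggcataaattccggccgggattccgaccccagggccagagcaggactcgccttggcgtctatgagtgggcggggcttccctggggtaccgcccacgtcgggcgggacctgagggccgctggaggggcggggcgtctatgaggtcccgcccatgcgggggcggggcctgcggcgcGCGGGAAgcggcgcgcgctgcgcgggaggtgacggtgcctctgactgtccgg
CDC45: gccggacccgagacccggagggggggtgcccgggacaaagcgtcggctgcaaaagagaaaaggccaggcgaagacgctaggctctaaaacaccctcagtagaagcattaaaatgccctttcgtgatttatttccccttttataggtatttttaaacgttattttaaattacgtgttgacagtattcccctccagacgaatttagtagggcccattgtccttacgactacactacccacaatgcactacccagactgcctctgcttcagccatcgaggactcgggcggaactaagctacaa
The E2F letters searched on both strands were TTCCCGC or TTCGCGC or TTGCCGC or TTGGCGC. ORC1 holds 2 overlapping matches, 22 and 19 bases before its start, and CHAF1B holds 1, 2 bases before its start. The windows of GMNN and CDC45 hold none of these letters. Of the 36 promoters, 26 (72.2%) hold at least 1 match, against 12.8% of all 27305 promoters in the table and 21.5% of those of genes tested in OCI-LY10. The 10 without a match are those of CCNA2, CCNE1, CDC45, FEN1, GMNN, MCM10, MCM7, ORC6, PCNA and POLD1. The CCAAT box, searched as CCAAT on both strands, is in 22 of the 36 (61.1%), against 35.6% of all promoters and 37.5% of those of tested genes. The letters TTTGAA, a core of the cell cycle homology element of mitotic genes, are in 1 of the 36 (2.78%), against 15.6% of all promoters and 10.3% of those of tested genes. The EGR1 letters GCGTGGGCG or GCGGGGGCG are in 3 of the 36 (8.33%), those of CHAF1B, POLD1 and UHRF1, against 5.55% of all promoters and 8.94% of those of tested genes. These shares are descriptions of the windows and not of binding.

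Values were read as FPKM, sequenced fragments scaled by gene length and library size. The FPKM of an OCI-LY10 library summed to 431993 to 445028. The count of reads behind a value is not given in the sources used here, so its counting error is unknown. In OCI-LY10, EGR1 RNA with the hairpins did not lie below its level in control libraries (log2 difference 0.42, SE 0.267, limma adjusted p = 0.349), nor in TMD8 (10.8 and 9.95 FPKM, against 7.31 in control), while in SUDHL2 it stood at 13.7 and 15.4 FPKM with the 2 hairpins, against 17.0 in control. Directions below therefore rest on the labels. The 4 B-cell markers MS4A1, CD79A, CD79B and PAX5 were expressed in every library, with a summed level of 2178 to 2446 and 2217 to 2307 FPKM in OCI-LY10 libraries labelled shEGR1#8 and shEGR1#9, against 1906 to 2037 in control. Within that sum CD79A had a mean of 928 FPKM over the hairpin libraries, against 591 in control (log2 change 0.65, limma adjusted p = 0.00926), and MS4A1 had 272, against 323 (−0.25, limma adjusted p = 0.110). In TMD8 the sum was 491 and 669.8 FPKM with the hairpins, against 649 in control, with MS4A1 at 66.3 and 85.6, against 194, and in SUDHL2 the sum was 569.6 and 564, against 547. The 4 T-cell markers stayed under 1 FPKM in every library of the 3 lines. Of the 3 myeloid markers, all stayed under 1 FPKM in OCI-LY10 and 2 did in TMD8 and SUDHL2, where LYZ reached 1 FPKM. Of the 3 fibroblast and epithelial markers, COL1A1 was at 0 in OCI-LY10 and the sum, nearly all EPCAM, was 6.78 to 8.68 and 6.84 to 7.79 FPKM with the hairpins, against 6.06 to 6.21 in control. The part of these shifts in the results below was not tested. The share of FPKM in short RNA genes was 0.471 to 0.615% in OCI-LY10. In TMD8 it was 60.5 and 55.5% in the hairpin libraries, against 36.3% in control, and in SUDHL2 52.9 and 49.4%, against 53.8%. In TMD8 the low values of the hairpin libraries and the control library also seldom stood in ratios of whole numbers (9.25 and 7.53% of low genes, against 86.7% between the hairpin libraries), so these libraries are not known to have been scaled alike, and the part of this in the TMD8 differences was not tested.

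In control libraries, PCNA had the highest level of the 40 genes in all 3 lines, with 447 ± 12.6 FPKM in OCI-LY10 (SD, n = 3), 297 FPKM in TMD8 and 203 FPKM in SUDHL2. The lowest were POLE, the catalytic subunit of the leading-strand polymerase, in OCI-LY10 (8.87 ± 0.854 FPKM), GINS4 in TMD8 (7.36 FPKM) and CCNE2 in SUDHL2 (4.04 FPKM). The 6 MCM subunits form 1 ring with 1 copy of each, but their RNA levels per length were unequal. In OCI-LY10 MCM3 stood highest of the 6, at 391 ± 13.7 FPKM, and MCM6 lowest, at 77.3 ± 1.93 FPKM. In TMD8 and SUDHL2 MCM5 stood highest, at 193 FPKM in each, and MCM6 was again lowest, at 61.2 and 58.1 FPKM. The order of the 40 control levels was alike between lines, with Spearman's rho of 0.86 for OCI-LY10 and TMD8, 0.82 for OCI-LY10 and SUDHL2 and 0.90 for TMD8 and SUDHL2, given as a description over 40 genes that are not independent. How the tables were scaled to each other is not known, so a level in 1 line is not set against that in another.

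**Figure D1:**
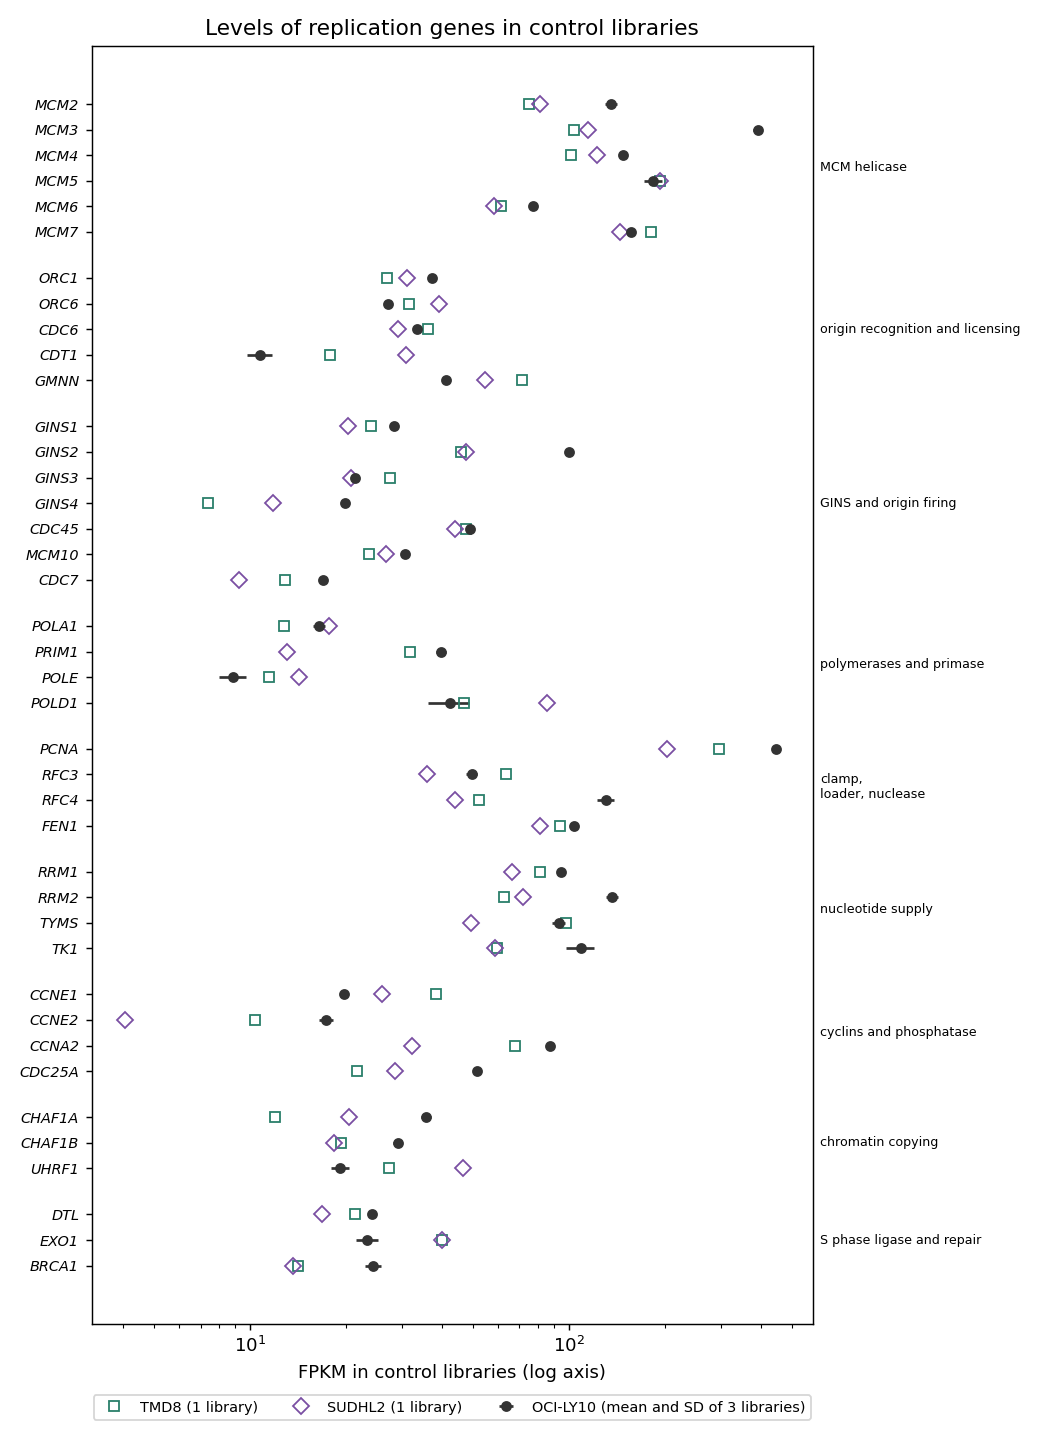
Level of each of the 40 genes in control libraries of the 3 lines, in FPKM on a log axis, with genes grouped by role and the OCI-LY10 value shown as mean and SD of 3 libraries. PCNA stands highest in every line, and MCM3 at 391 FPKM in OCI-LY10 is the highest of the MCM subunits there.

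In OCI-LY10 the differences between libraries labelled shEGR1#8 and shEGR1#9 and control libraries were small, and the genes that passed were lower. With both hairpins against control, 5 of 40 genes fell, GMNN, ORC1, CHAF1B, CDC45 and GINS4, by 0.20 to 0.32 on the log2 scale, none rose and 35 did not pass (limma, adjusted p under 0.05). Of all 10612 genes tested, 2.71% fell and 5.84% rose by the same rule. At an unadjusted p under 0.05, 14 of the 40 were lower and 1, CCNE2, was higher. Of all 10612 genes, 985 were lower and 1782 higher at that cut. The estimate was below 0 for 33 of the 40 and above it for 7, while over all genes it was below 0 for 4691 and above for 5921. The median of the 40 was −0.11, against 0.03 for all genes tested. In 16 of the 40 genes all 6 hairpin libraries lay below all 3 control libraries, against 8.22% of all genes, and in none did they lie above, against 12.9%. The count of 5 changed with single libraries. It was 1, 0 and 0 without control replicate 1, 2 or 3, and 3, 2 and 2 when shEGR1#9 replicate 1, 2 or 3 was left out. With shEGR1#8 replicate 2 or 3 left out 8 fell, and without its replicate 3 another 1 rose. Over all genes, the 288 that fell became 83, 73 and 75 without control replicate 1, 2 or 3. They became 412 and 442 without shEGR1#8 replicate 2 or 3, and 200, 154 and 155 without shEGR1#9 replicate 1, 2 or 3. In bulk RNA, fewer cells in S phase and less RNA of these genes per cell cannot be told apart. MKI67, a marker of cycling cells, differed by −0.04 on the log2 scale (limma adjusted p = 0.745). CDKN1A, which encodes the inhibitor p21 of cyclin-dependent kinases, was higher with the hairpins (log2 change 1.03, SE 0.072, limma adjusted p = 0.000182), and its part in these differences was not tested. It was also higher in TMD8, with 39.5 and 54.2 FPKM with shEGR1#8 and shEGR1#9, against 26.3 in control, and in SUDHL2, with 62.6 and 66.5, against 22.6.

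Each hairpin alone gave fewer calls. With shEGR1#8 against control, GMNN, ORC1 and CHAF1B fell and none of the 40 rose, where 1.62% of all genes fell and 3.71% rose. With shEGR1#9 against control, GMNN and ORC1 fell and none rose, where 1.54% of all genes fell and 3.55% rose. For either hairpin, 0 of the 40 were called in limma without control replicate 1, 2 or 3, and 0 without all replicate 3 libraries. Over all genes, the 172 that fell with shEGR1#8 became 34, 33, 35 and 48 under these settings, in that order. The 163 that fell with shEGR1#9 became 40, 46, 40 and 59. With shEGR1#8 the count of the 40 was 1 without shEGR1#9 replicate 2, 5 without shEGR1#8 replicate 2, 6 with array weights and 7 with median-ratio scaling. With shEGR1#9 it was 0 without any 1 of its own libraries, 1 and 5 without shEGR1#8 replicate 2 or 3, and 11 with array weights (10 fell and 1 rose). Array weights gave 234 falls over all genes with shEGR1#8 and 683 with shEGR1#9, and median-ratio scaling gave 210 with shEGR1#8. The medians of the 40 genes were −0.12 with shEGR1#8 and −0.10 with shEGR1#9. Between the hairpins none of the 40 genes and 0% of all genes passed in limma, with 1 of the 40 and 267 of all genes at an unadjusted p under 0.05. That 1 gene is CHAF1B, with a shEGR1#9 minus shEGR1#8 difference of 0.14. No other tool was run for this comparison.

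**Figure D2:**
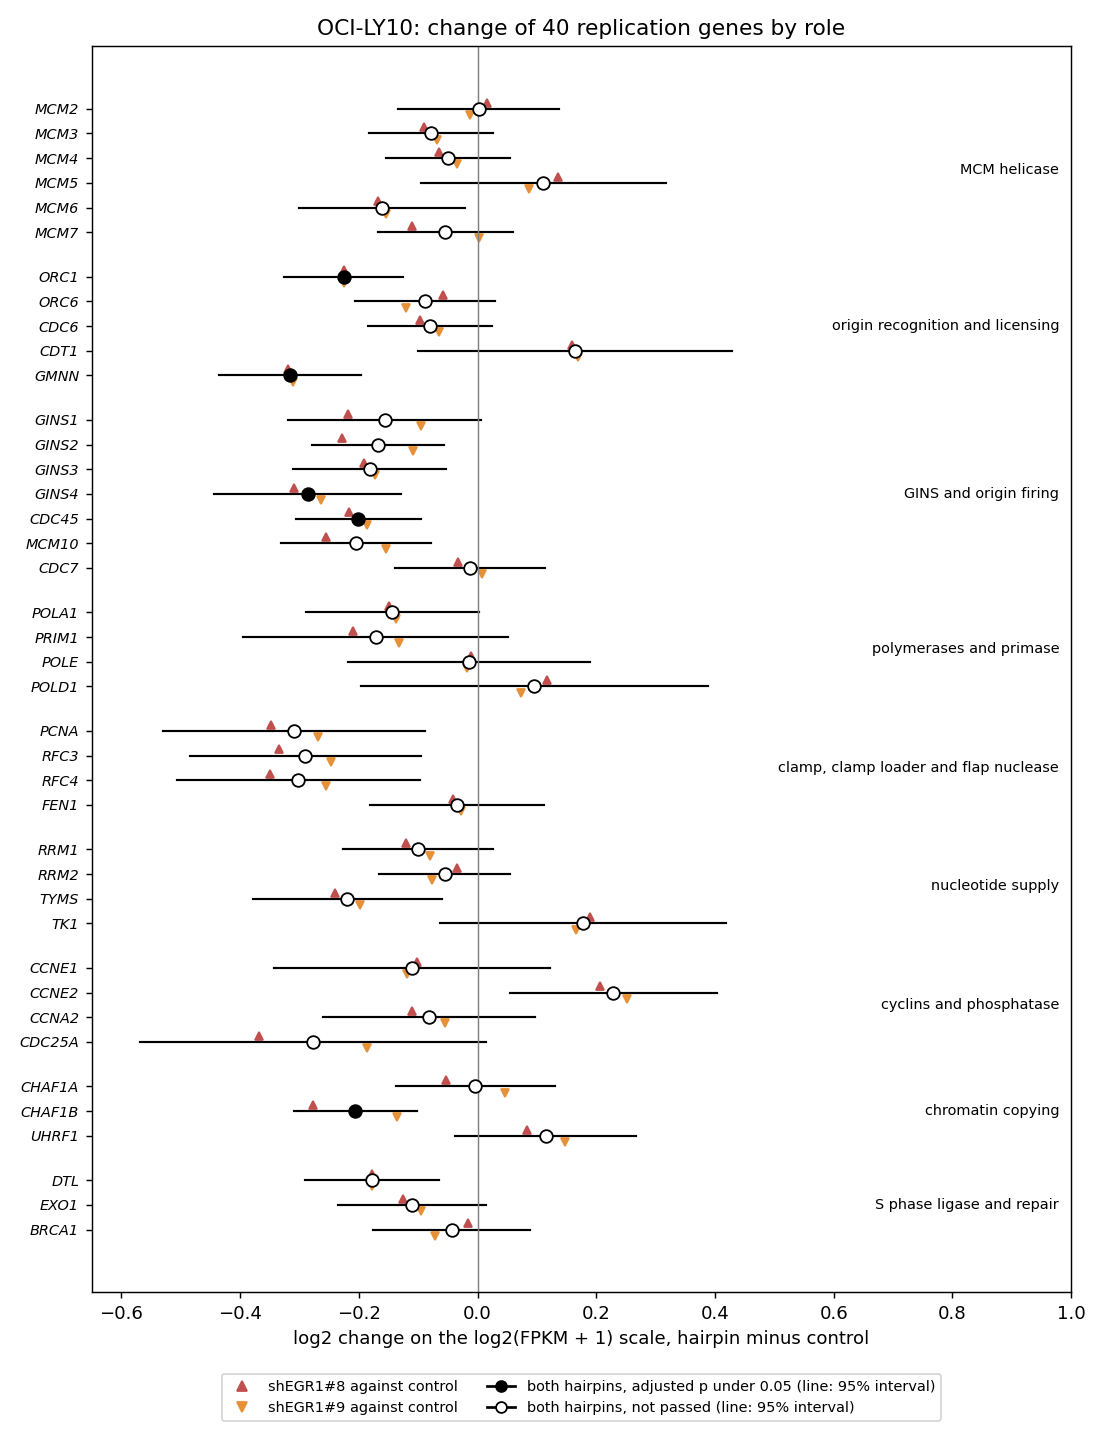
Log2 change of each of the 40 genes in OCI-LY10, on the log2(FPKM + 1) scale as hairpin minus control, with circles and lines for the average of both hairpins and its 95% interval and triangles for each hairpin alone. Filled circles are the 5 genes that passed, all at or below −0.20, and the 2 triangles of a gene lie close together for most genes.

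The helicase subunits of the MCM ring did not pass as single genes. MCM3, the most abundant of them, had 359, 372 and 371 FPKM in libraries labelled shEGR1#8, 378, 385 and 357 in those labelled shEGR1#9, and 393, 377 and 404 in control. The groups overlap, since 2 shEGR1#9 libraries are at or above the lowest control (log2 difference −0.08, SE 0.046, limma adjusted p = 0.311). MCM6 had 73.8, 70.7 and 62.0 FPKM with shEGR1#8 and 71.4, 70.5 and 66.2 with shEGR1#9, against 75.8, 79.5 and 76.7 in control. It is the only MCM subunit whose groups did not overlap, and it did not pass (−0.16, SE 0.062, limma adjusted p = 0.141). MCM2, MCM4 and MCM7 differed by 0.00, −0.05 and −0.05. MCM5 differed by 0.11 (95% interval −0.10 to 0.32), with its highest value, 234 FPKM, in shEGR1#8 replicate 3, and this estimate was below 0 without the replicate 3 libraries. The median of the 6 was −0.05.

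Of the genes of origin recognition and licensing, ORC1 and GMNN fell and ORC6, CDC6 and CDT1 did not pass. GMNN, the inhibitor of licensing, had 33.2, 34.6 and 30.7 FPKM in libraries labelled shEGR1#8, 33.2, 31.6 and 34.2 in those labelled shEGR1#9, and 40.4, 41.3 and 41.9 in control. Every hairpin library lies below every control library, with means of 32.9 ± 1.99 FPKM for shEGR1#8, 33.0 ± 1.35 for shEGR1#9 and 41.2 ± 0.753 for control (SD, n = 3 each). The log2 change of −0.32 (SE 0.053) passed in limma with an adjusted p of 0.00891, and with each hairpin alone (0.0232 and 0.0236). With both hairpins the adjusted p was 0.0508 and 0.0586 without control replicate 2 or 3, and the single-hairpin calls were lost without any 1 of the controls. ORC1, the subunit of ORC that varies over the cycle in human cells, had 30.5, 32.1 and 32.2 FPKM with shEGR1#8 and 30.7, 32.4 and 31.7 with shEGR1#9, against 37.4, 36.4 and 37.6 in control. Its groups do not overlap either, and it fell by 0.23 (SE 0.044, limma adjusted p = 0.0165), a call lost without control replicate 1, 2 or 3 (0.0820, 0.0647 and 0.0985) and without all replicate 3 libraries (0.0805). The promoter of ORC1 holds the overlapping E2F letters shown above, and that of GMNN holds none.

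CDT1, which loads MCM rings and is the protein that geminin binds, went the other way without passing. It had 10.6, 11.1 and 15.0 FPKM with shEGR1#8 and 10.6, 12.5 and 13.6 with shEGR1#9, against 11.2, 11.4 and 9.63 in control. The hairpin libraries overlap the controls, and the 2 highest values are both in replicate 3 (log2 difference 0.16, SE 0.117, limma adjusted p = 0.406). Without the replicate 3 libraries its estimate was below 0. ORC6 and CDC6, which recruits MCM to ORC, differed by −0.09 and −0.08, with 5 of 6 hairpin libraries below all controls in each.

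Of the 7 genes of the GINS complex and of origin firing, CDC45 and GINS4 fell and GINS1, GINS2, GINS3, MCM10 and CDC7 did not pass. All 7 estimates were below 0, except that CDC7 turned above 0 with array weights and without all replicate 3 libraries, control replicate 3 or shEGR1#8 replicate 3. Their median was −0.18, and in 6 of 7 all hairpin libraries lay below all controls, against 8.22% of all genes. GINS1 and GINS3 differed by −0.16 and −0.18 (limma adjusted p 0.206 and 0.0844), and GINS3 passed in 1 of the 16 alternative settings (0.0281). CDC45, which joins the MCM ring to make the active helicase, had 42.0, 40.2 and 43.8 FPKM with shEGR1#8 and 42.7, 44.3 and 41.8 with shEGR1#9, against 49.3, 47.9 and 49.6 in control. It fell by 0.20 (SE 0.047, limma adjusted p = 0.0314) with no overlap of the groups. The CDC45 call was lost without any 1 of the control libraries (0.126, 0.0946 and 0.150), without any 1 of the shEGR1#9 libraries (0.0614 to 0.0747) and without all replicate 3 libraries (0.0938).

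GINS4, a subunit of the 4-part GINS complex, had 15.6, 17.2 and 14.6 FPKM with shEGR1#8 and 17.9, 16.3 and 14.9 with shEGR1#9, against 19.4, 19.7 and 20.2 in control. The groups do not overlap, and both replicate 3 hairpin libraries are the lowest of their group. It fell by 0.29 (SE 0.070, limma adjusted p = 0.0376). The call was lost without control replicate 1, 2 or 3 (0.113, 0.124 and 0.159), when shEGR1#8 replicate 1 (0.0531) or shEGR1#9 replicate 2 or 3 (0.0822 and 0.0709) was left out, without all replicate 3 libraries (0.147), and with no filter on low values (0.0549). GINS2, the most abundant subunit, had 81.2, 88.2 and 85.9 FPKM with shEGR1#8 and 93.9, 96.1 and 87.8 with shEGR1#9, against 100.5, 97.9 and 101 in control. All hairpin libraries are below all controls, with a log2 difference of −0.17 (SE 0.049, limma adjusted p = 0.0707). GINS2 passed in 1 of the 16 alternative settings (limma adjusted p 0.0337). MCM10, a factor that activates the helicase and is no part of the MCM ring, had 27.5, 25.6 and 23.3 FPKM with shEGR1#8 and 27.3, 28.1 and 26.7 with shEGR1#9, against 30.7, 30.5 and 30.5 in control. Its groups do not overlap and the controls lie close together, and it did not pass (−0.20, SE 0.056, limma adjusted p = 0.0569), though it did with array weights, with median-ratio scaling and without shEGR1#8 replicate 1 or 3 (adjusted p 0.0101 to 0.0369).

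**Figure D3:**
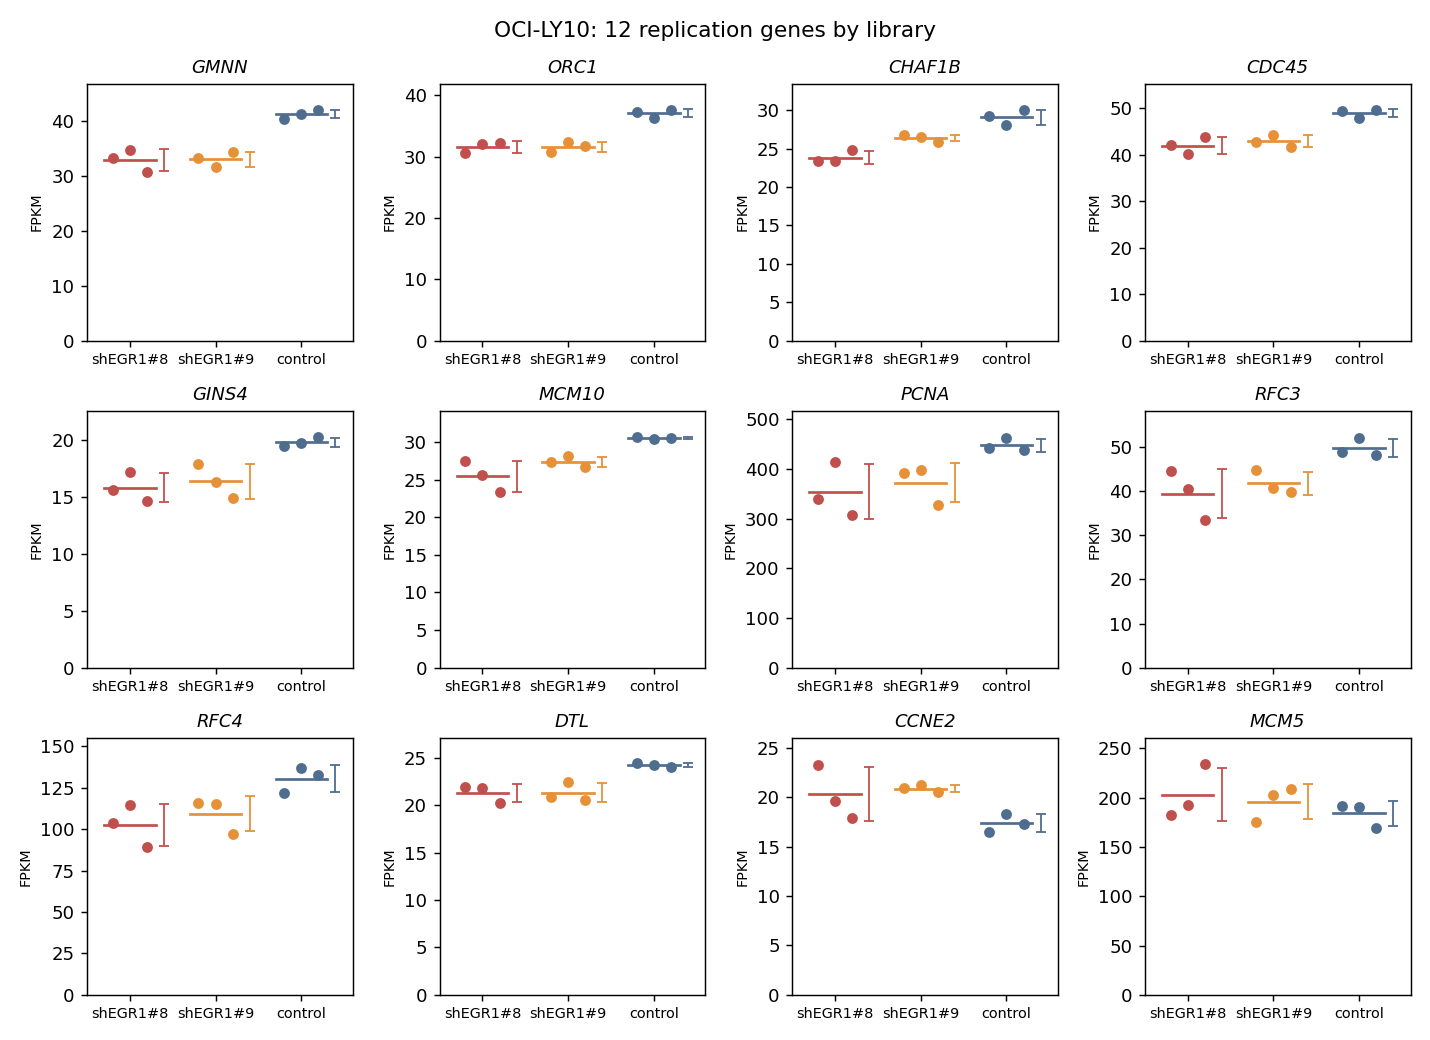
FPKM of 12 of the genes in each OCI-LY10 library, with points for libraries, horizontal lines for group means and bars for the SD of 3 libraries. The 5 genes that fell and MCM10, PCNA, RFC3, RFC4 and DTL have all 6 hairpin libraries below the 3 controls, while CCNE2 and MCM5 do not.

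The sliding clamp and its loader had the lowest median of the role groups, −0.30, and none of the 4 genes passed. PCNA, the clamp that holds polymerases on DNA, had 339, 415 and 308 FPKM with shEGR1#8 and 391, 398 and 328 with shEGR1#9, against 442, 462 and 438 in control. No hairpin library reaches the lowest control, but the hairpin libraries spread widely, with means of 354 ± 54.9 and 372 ± 38.4 FPKM, against 447 ± 12.6 in control (SD, n = 3 each). The log2 difference was −0.31 (95% interval −0.53 to −0.09, limma adjusted p = 0.0875), and it passed without shEGR1#8 replicate 2 (0.0225), whose value is the nearest to control. RFC3 and RFC4, subunits of the complex that opens the clamp and places it on DNA, differed by −0.29 and −0.30 (limma adjusted p 0.0725 and 0.0747), also with no overlap of groups. The limma adjusted p of RFC3 was 0.0136 with array weights, and 0.0304 and 0.0339 when shEGR1#8 replicate 1 or 3 was left out, and that of RFC4 was 0.0389 without shEGR1#8 replicate 2. RFC4 had 104, 115 and 89.5 FPKM with shEGR1#8 and 116, 115 and 97.1 with shEGR1#9, against 122, 137 and 133 in control, so that the replicate 3 library of each hairpin is again the lowest. FEN1, the nuclease that trims flaps of Okazaki fragments, differed by −0.03 and overlapped.

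None of the 4 polymerase and primase genes passed. POLD1, the catalytic subunit of the lagging-strand polymerase and the most abundant of the 4, had 38.4, 44.0 and 56.9 FPKM with shEGR1#8 and 40.9, 45.5 and 47.1 with shEGR1#9, against 43.1, 48.4 and 35.8 in control. The hairpin and control libraries overlap (log2 difference 0.10, 95% interval −0.20 to 0.39, limma adjusted p = 0.667), and the estimate was below 0 without the replicate 3 libraries. POLE differed by −0.01. POLA1 and PRIM1, the polymerase and primase subunits that start new strands, differed by −0.14 and −0.17 (limma adjusted p 0.198 and 0.305), and in POLA1 all 6 hairpin libraries lay below all 3 controls.

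None of the 4 genes of nucleotide supply passed. RRM2, the regulated subunit of ribonucleotide reductase, had 137, 126 and 136 FPKM with shEGR1#8 and 131, 128 and 129.8 with shEGR1#9, against 130.3, 137 and 142 in control. The groups overlap (log2 difference −0.06, SE 0.049, limma adjusted p = 0.499), and RRM1, the large subunit, differed by −0.10. TYMS, thymidylate synthase, was lower in all 6 hairpin libraries than in all controls (−0.22, SE 0.071, limma adjusted p = 0.0922). It passed in 1 of the 16 alternative settings (limma adjusted p 0.0428). TYMS overlaps the gene ENOSF1 on the opposite strand, and no source states that strand was used in counting, so reads of the pair cannot be told apart. TK1, thymidine kinase, which supplies thymidylate by salvage, differed by 0.18 (95% interval −0.06 to 0.42), with its highest value, 152 FPKM, in shEGR1#8 replicate 3.

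Among the cyclins, CCNE2 was the one gene of the 40 that was higher at an unadjusted p under 0.05. It encodes a cyclin E that drives entry into S phase, and it had 23.3, 19.6 and 17.9 FPKM with shEGR1#8 and 20.9, 21.2 and 20.5 with shEGR1#9, against 16.5, 18.3 and 17.3 in control. Of the 6 hairpin libraries 5 lie above all controls, and the log2 difference of 0.23 (SE 0.077) did not pass (limma adjusted p = 0.102), though it did with array weights (0.0140) and without shEGR1#8 replicate 3 (0.0294). CCNE1, the other cyclin E, differed by −0.11 with 5 of 6 hairpin libraries below all controls. CCNA2, the cyclin A of S phase and G2, had 92.3, 82.5 and 69.6 FPKM with shEGR1#8 and 86.2, 81.3 and 85.0 with shEGR1#9, against 86.4, 88.0 and 87.9 in control. Its controls lie within the range of the shEGR1#8 libraries (−0.08, SE 0.079, limma adjusted p = 0.540). CDC25A, a phosphatase that activates cyclin-dependent kinases, differed by −0.28 with a wide interval (−0.57 to 0.01).

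CHAF1B, a subunit of the CAF-1 complex that places histones on newly copied DNA, fell, while its partner CHAF1A did not pass. CHAF1B had 23.3, 23.4 and 24.8 FPKM with shEGR1#8 and 26.7, 26.5 and 25.9 with shEGR1#9, against 29.2, 28.0 and 30.0 in control. All hairpin libraries lie below the controls, and those of shEGR1#8 also lie below those of shEGR1#9. It fell by 0.21 (SE 0.046, limma adjusted p = 0.0268) with both hairpins and by 0.28 with shEGR1#8 alone (limma adjusted p = 0.0232), while with shEGR1#9 alone it did not pass (log2 difference −0.14, limma adjusted p = 0.199). The difference between the hairpins did not pass. The call with both was lost without control replicate 1, 2 or 3 (0.114, 0.0713 and 0.151), when leaving out shEGR1#9 replicate 1, 2 or 3 (0.0568, 0.0699 and 0.0668) and without all replicate 3 libraries (0.0928).

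CHAF1A had 31.8, 34.6 and 36.7 FPKM with shEGR1#8 and 34.8, 37.1 and 38.6 with shEGR1#9, against 37.1, 34.7 and 35.1 in control. The libraries of the 3 groups are interleaved (log2 difference −0.00, 95% interval −0.14 to 0.13). UHRF1, which brings DNA methyltransferase to copied DNA, differed by 0.11 (SE 0.068, limma adjusted p = 0.316).

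DTL, the part of a ubiquitin ligase that marks CDT1 for destruction in S phase, lay below all controls in all 6 hairpin libraries (log2 difference −0.18, SE 0.050, limma adjusted p = 0.0625), and it passed with array weights, with median-ratio scaling, with quantile normalization and without shEGR1#8 replicate 3 (adjusted p 0.0318 to 0.0415). EXO1, a repair nuclease, and BRCA1, a recombination repair gene that is highest of this group, differed by −0.11 and −0.04. BRCA1 had 25.8, 23.9 and 22.4 FPKM with shEGR1#8 and 23.0, 23.3 and 22.9 with shEGR1#9, against 22.7, 25.5 and 24.6 in control, and the groups overlap.

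Of the 40 genes, shEGR1#8 replicate 3 had the lowest value of all 9 libraries for 18 and the highest for 9. Over all genes tested, this library was lowest for 26.8% and highest for 28.3%. Its highest values were in MCM2, MCM5, ORC6, CDT1, POLE, POLD1, FEN1, TK1 and CCNE1. In control replicate 3 MCM5, CDT1, POLD1, TK1 and UHRF1 were at their lowest, against 18.0% of all genes. Control replicate 3 also had the highest value of the 9 libraries for 13 of the 40 genes, the 5 that fell among them, against 9.70% of all genes. In shEGR1#9 replicate 3 the lowest value was found for 1 of the 40 and the highest for 1, against 6.72 and 8.69% of all genes. Without the replicate 3 libraries 1 of the 40 genes passed, GMNN, while the falls over all genes went from 288 to 108. The median of the 40 was then −0.076, against 0.017 for all genes. In 18 genes all hairpin libraries lay below all controls, against 13.1% of all genes. What sets shEGR1#8 replicate 3 apart was not tested.

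**Figure D4:**
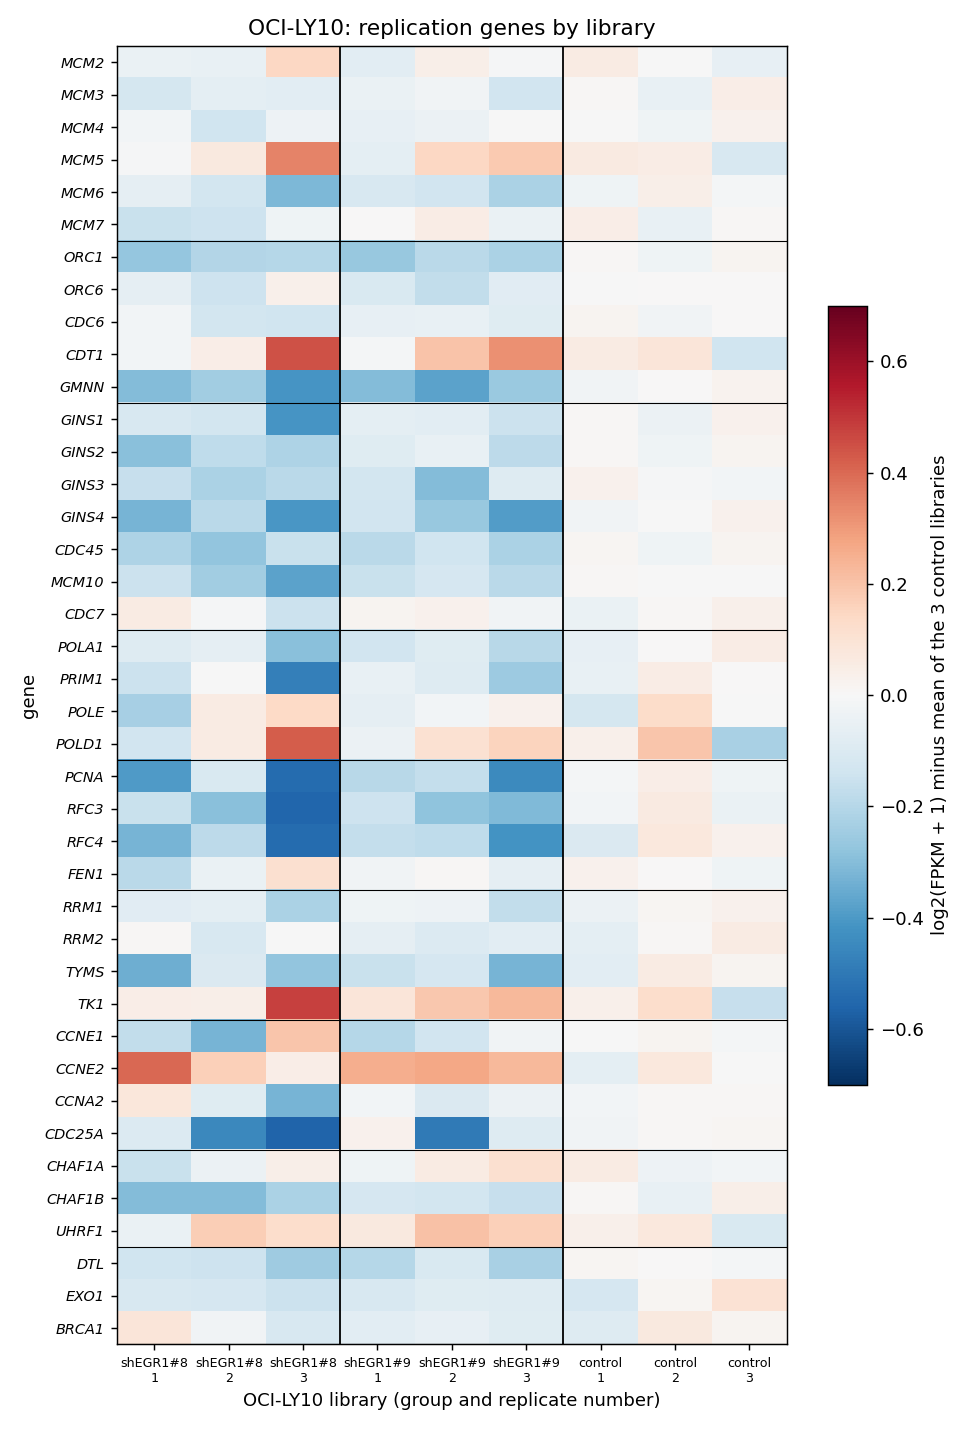
Each OCI-LY10 library (columns, with shEGR1#8 and shEGR1#9 left of control) and gene (rows by role), coloured by log2(FPKM + 1) minus the mean of the 3 control libraries. GMNN, ORC1, the GINS subunits, CDC45, PCNA, RFC3 and RFC4 are lower across the 6 hairpin columns, and shEGR1#8 replicate 3 holds both the lowest value of 18 genes and the highest value of 9.

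In TMD8, with 1 library per group and no test, genes were counted by the size of the difference and not by an adjusted p. These counts therefore cannot be set against those of OCI-LY10. Differences were centred on the median gene, and a gene was counted when it differed by 1.5-fold or more. With shEGR1#8 9 of 40 genes were lower and none higher, where 16.6% of all genes were lower and 16.6% higher. With shEGR1#9 12 were lower and none higher, where 18.6% of all genes were lower and 12.9% higher. The count of lower genes with shEGR1#8 was 14 without centring, since the median of all genes stood at −0.09 there. The medians of the 40 genes were −0.34 and −0.27 on the log2 scale. MKI67 stood at 79.1 and 65.9 FPKM in the hairpin libraries, against 42.1 in control.

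The genes lower by that size with both hairpins in TMD8 numbered 8, namely GMNN, CDC45, PRIM1, PCNA, RFC3, RFC4, CCNE2 and CCNA2. Both hairpins share 1 control library, and the share of all genes lower with both was not counted. On the average of both hairpins 10 of the 40 were lower by that size, against 2082 of all 11807 genes. PCNA read 129 and 138 FPKM in the libraries labelled shEGR1#8 and shEGR1#9, against 297 in control, and GMNN read 31.9 and 35.2 FPKM, against 71.5. RFC3 read 30.7 and 28.0 FPKM, against 63.6 in control, and PRIM1 13.3 and 15.3, against 31.7. Both cyclins of S phase in this set were also low, CCNA2 at 32.9 and 33.5 FPKM, against 67.9, and CCNE2 at 4.71 and 3.63, against 10.4 in control. Thus CCNE2 was lower in TMD8 and not in OCI-LY10, a difference between lines that was not tested. The clamp and loader group again had the lowest median of the 9 roles with each hairpin, −0.85 and −0.94. GINS4 stood at 7.87 and 8.02 FPKM, against 7.36 in control. CDT1 was the highest above its control with shEGR1#9, at 20.1 and 26.7 FPKM, against 17.8 in control. ORC1, which fell in OCI-LY10, stood at 21.7 and 24.3 FPKM, against 26.9, short of the 1.5-fold mark.

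In SUDHL2, also with 1 library per group, GMNN and PCNA were the genes lower by 1.5-fold or more with both hairpins. The share of all genes lower with both was not counted here either. On the average of both hairpins 2 of the 40 were lower by that size, close to the share of all genes (544 of 11631). GMNN read 32.1 and 31.5 FPKM, against 54.4 in control, and PCNA 125 and 123, against 203. In all, 3 of 40 genes were lower with shEGR1#8 (GINS2 besides these) and 5 with shEGR1#9 (CDC7, RFC3 and RFC4 besides these), and none was higher. Of all genes, 3.99% were lower and 5.98% higher with shEGR1#8, and 8.53% were lower and 9.35% higher with shEGR1#9. The medians of the 40 genes were −0.20 and −0.27, and MKI67 stood at 61.8 and 64.8 FPKM, against 69.8 in control. GINS2 read 29.7 and 34.6 FPKM, against 47.7, and CDC45 31.3 and 35.1, against 43.9. CHAF1A, at 22.6 and 28.9 FPKM against 20.4 in control, was the gene furthest above its control.

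**Figure D5:**
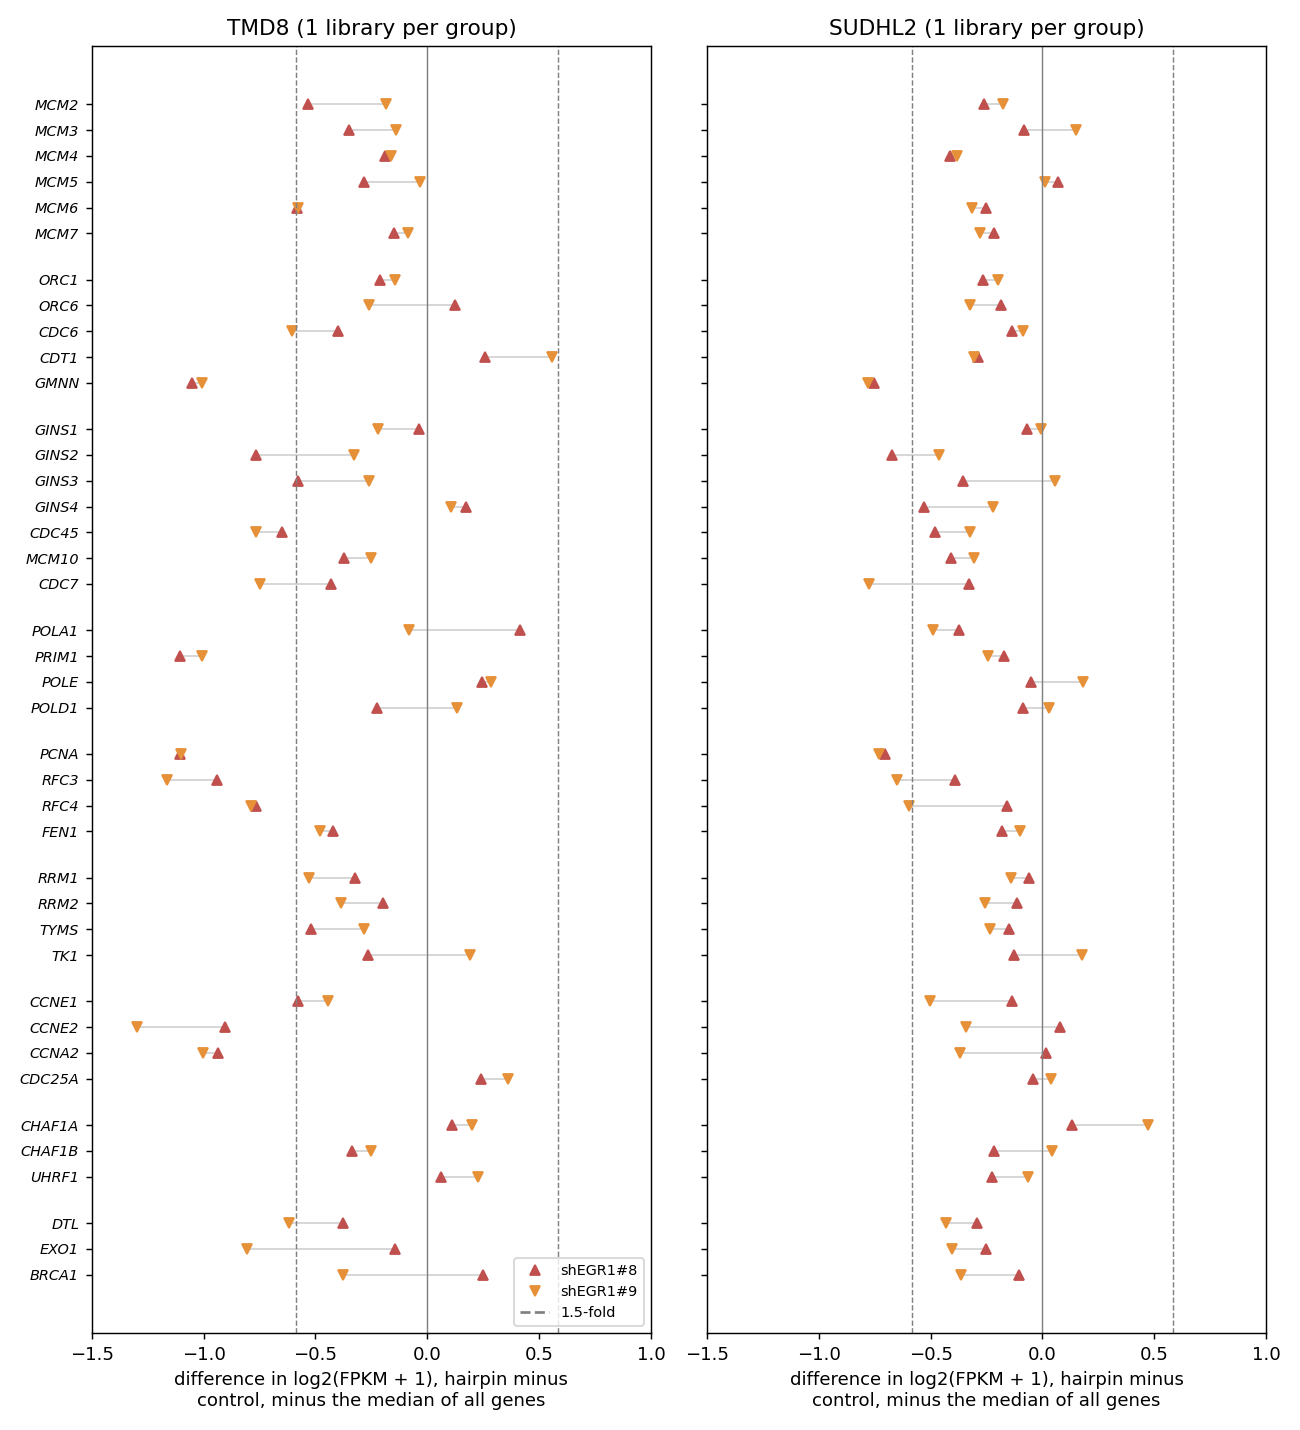
Difference of each of the 40 genes in TMD8 and SUDHL2, as log2(FPKM + 1) in the hairpin library minus the control library and minus the median of all genes, with 1 library per group. Points left of the left dashed line are lower by 1.5-fold or more, 9 and 12 genes in TMD8 and 3 and 5 in SUDHL2, and none lies right of the right dashed line.

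Across the 3 lines, 28 of the 40 genes were lower on the average of both hairpins in every table after centring, against 26.5% of all 9597 genes compared, and none was higher in every table, against 22.6%. The centred log2 difference of GMNN was −0.34 in OCI-LY10, −1.05 in TMD8 and −0.77 in SUDHL2, with no test across lines. The other 12 genes, which differed in direction between tables, were MCM3, MCM5, CDT1, GINS4, POLA1, POLE, POLD1, TK1, CCNE2, CDC25A, CHAF1A and UHRF1. The order of the changes was shared in part, with Spearman's rho over the 40 genes of 0.39 for TMD8 and OCI-LY10, 0.49 for SUDHL2 and OCI-LY10 and 0.45 for TMD8 and SUDHL2. Over all genes the same values were 0.37, 0.45 and 0.48. These are descriptions, since genes of 1 library share its preparation.

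A second list of 54 replication genes outside the 40, all tested in OCI-LY10, gave similar counts. Both lists share the same libraries and were chosen with earlier results of these data known, so the second is no independent check. With both hairpins 5 fell, none rose and 49 did not pass (limma), with a median of −0.09, set against the 2.71% of all genes that fell. They were CDCA7, an activator of the remodeller HELLS (log2 change −0.41, SE 0.075, limma adjusted p = 0.0123), TOPBP1, a scaffold of origin firing (−0.30, 0.0147), POLE3, an accessory subunit of the leading-strand polymerase (−0.28, 0.0392), FANCI, a DNA crosslink repair gene (−0.21, 0.0404), and ASF1B, a histone chaperone that hands histones to CAF-1 (−0.17, 0.0416). CDCA7 had 34.1, 35.1 and 28.3 FPKM with shEGR1#8 and 34.0, 34.3 and 32.0 with shEGR1#9, against 42.0, 47.2 and 43.1 in control, with no overlap of groups. It read 29.0 and 32.9 FPKM in TMD8, against 59.6 in control, and 32.7 and 33.8 in SUDHL2, against 47.9. The count of 5 was 2, 0 and 0 without control replicate 1, 2 or 3, and 3, 2 and 2 when shEGR1#9 replicate 1, 2 or 3 was left out. The falls over all genes under these settings, given above, were also fewer. In TMD8 22 and 25 of the 54 were lower by 1.5-fold or more with shEGR1#8 and shEGR1#9 and 2 and 1 were higher, where 16.6 and 18.6% of all genes were lower and 16.6 and 12.9% higher. In SUDHL2 4 and 11 were lower and none was higher, where 3.99 and 8.53% of all genes were lower and 5.98 and 9.35% higher.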

How the data were processed

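RNA of 15 libraries was analysed, 9 of OCI-LY10 and 3 each of TMD8 and SUDHL2, grouped by title and treatment label. The deposited tables hold an FPKM value for each gene in each library; this unit was inferred from the values, since no label or header names it. StringTie, HISAT and Bowtie2 and the build hg19 are named in the submitters' processing notes, and the versions, roles, gene annotation and scaling between libraries were not given in the sources used here. Lines with a repeated name (4, 10 and 10) and 430 lines of the SUDHL2 table that repeat the end of the TMD8 table were left out.

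In OCI-LY10, genes with at least 1 FPKM in at least 3 libraries (10612) were fitted as log2(FPKM + 1) in limma 3.58.1 under R 4.3.3, using group means and a trend of variance with level, with Benjamini-Hochberg adjustment over all of them. The pseudocount of 1 understates changes of low genes. In TMD8 and SUDHL2, genes with at least 1 FPKM in at least 1 library were compared without a test. The scripts were tested on simulated data. Python 3.11.15, numpy 2.4.6, pandas 2.3.3 and matplotlib 3.10.9 were used.

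The 40 genes, their roles and the second list were chosen with earlier results of these data known. Values of every library were given for genes called in any OCI-LY10 contrast, the most abundant gene of each role and MCM10, the gene with the next smallest p (the rule asked for 6); MCM6, CDT1, RFC4 and CCNE2 were added after their values were seen. Promoters were printed for the called genes found in the promoter table. Same-numbered OCI-LY10 libraries were not taken as pairs. Alternatives were another scaling, quantile normalization, array weights, another pseudocount, other filters, a replicate block and leaving out libraries. GC content and transcript length were not tested. Some items, among them a marker of the cell type check, are not reported here.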

Additional observations from a re-analysis of the deposited data

Results flagged for a closer look

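GINS4 differed in direction between lines. In TMD8 its centred log2 difference was 0.17 with shEGR1#8 and 0.11 with shEGR1#9, and 0.12 on their average (7.87 and 8.02 FPKM, against 7.36 in control), while all 6 hairpin libraries of OCI-LY10 lay below all 3 controls. The difference between the lines was not tested, and TMD8 has 1 library per group. The TMD8 average of GINS4 lies between the quartiles of all genes there (−0.40 and 0.34), and its control level was the lowest of the 40. POLA1 also had all 6 hairpin libraries of OCI-LY10 below all controls. Its TMD8 average was 0.15, with 0.41 for shEGR1#8 and −0.08 for shEGR1#9.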

How the results depend on the processing

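The count of 5 of the 40 genes called with both hairpins in OCI-LY10 was 11 with array weights (10 fell and 1 rose), 3 with a replicate block, 1 without all replicate 3 libraries (an alternative chosen after seeing the data) and 0 to 9 when 1 library was left out. Of those 9, 8 fell and 1 rose. For shEGR1#8 the count of 3 was 6 with array weights, 7 with median-ratio scaling, 0 with a replicate block, 0 without all replicate 3 libraries and 0 to 5 with 1 library left out. For shEGR1#9 the count of 2 was 11 with array weights (10 fell and 1 rose), 0 with a replicate block, 0 without all replicate 3 libraries and 0 to 5 with 1 library left out. Between the hairpins it was 0 under every setting run. Array weights also raised the calls over all genes. With both hairpins they gave 1287 higher and 627 lower, against 620 and 288. With shEGR1#8 they gave 515 and 234, against 394 and 172, and with shEGR1#9 1267 and 683, against 377 and 163. Without all replicate 3 libraries the calls over all genes with both hairpins were 260 higher and 108 lower. With the replicate block they were 537 and 238. The 5 other replication genes called became 10 with array weights, 2 without all replicate 3 libraries and 0 to 6 with 1 library left out. The median of −0.11 was −0.13 with median-ratio scaling, −0.13 with quantile normalization, −0.076 without all replicate 3 libraries and −0.12 to −0.086 with 1 library left out. The median of all genes was −0.013 to 0.035 under these settings. The 16 genes with all hairpin libraries below all controls were 18 without all replicate 3 libraries and 16 to 19 with 1 library left out. The share of all genes moved as well, from 8.22% to 13.1% without all replicate 3 libraries and to 8.53 to 12.2% with 1 library left out. Of the 40 genes, 0 to 2 lay above all controls under these settings, where the share of all genes above was not counted. The 28 genes lower in all 3 tables were 27 without centring, and the 9 in TMD8 with shEGR1#8 were 14. No gene that passed changed direction under any of these settings. Quantile normalization gave 444 higher and 367 lower calls over all genes, against 620 and 288. Same-numbered libraries of different groups correlated at −0.19 to 0.26 in their deviations, and 5 of 9 libraries correlated best with their own number, so the numbers were not taken as pairs; with the replicate block the calls of CHAF1B, CDC45 and GINS4 were lost (limma adjusted p 0.0516, 0.0623 and 0.0531) and PCNA passed (0.0432). The cause of these shifts was not tested. Read depth is unknown, so the counting error of low values could not be set apart from the spread between libraries.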

Other observations

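CDK1, the kinase of mitotic entry, read 45.0 and 36.4 FPKM in TMD8 libraries labelled shEGR1#8 and shEGR1#9, against 142 in control, and its OCI-LY10 groups overlapped (log2 difference −0.13, limma adjusted p = 0.420). CLSPN, a checkpoint adaptor at replication forks, read 11.6 and 7.03 FPKM in TMD8, against 3.89 in control, and 6.39 and 6.79 in SUDHL2, against 8.44. Both genes were chosen after their values were seen.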
